A study of Mus musculus with 17 samples.

Results

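Of 66177 accessible regions in the ATAC-seq table, 448 (0.677%) were less accessible in Dnmt3-deficient than in control bone marrow plasma cells and were selected on these values themselves, so the loss is no finding. A region was taken when it lay outside chromosomes X, Y and M, when the larger of the 2 Dnmt3-deficient values was at most the smallest of the 3 control values divided by 1.5, and when the control mean was at least 3 RPPM (reads in a region per 1000000 reads in all regions of the library). These regions are called lost below, and regions with a control plasma cell mean of at least 3 RPPM are called open. The lost regions made up 1.12% of the 39961 open regions. In the mirrored rule, on the same chromosomes, the smaller Dnmt3-deficient value was at least 1.5 times the largest control value. The Dnmt3-deficient mean, in place of the control mean, was at least 3 RPPM. This rule took 1849 regions (called gained), or 4.13 for every lost region. The 38744 open regions that were neither lost nor gained are called other open regions.

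ATAC-seq marks DNA that the transposase Tn5 can reach. Libraries of naive B cells (nB), B cells of the germinal center (GCB) and plasma cells of the bone marrow (BMPC) came from mice with the genotype Dnmt3a fl/fl Dnmt3b fl/fl and a B lineage Cre allele (Dnmt3-deficient, KO) and from Dnmt3a fl/fl Dnmt3b fl/fl littermates without Cre (controls, C), to ask how loss of de novo DNA methylation bears on chromatin during B cell differentiation. All groups carried the floxed alleles on the background B6;129S4-Dnmt3atm3.1Enl Dnmt3btm5.1Enl/Mmnc, and the Cre of KO mice is active from the pro-B cell stage. Mice were 8 to 12 weeks old, and 3000 to 5000 sorted cells entered each library.

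nB were B220+ GL7- Fas- lymph node cells of unimmunized males (3 C and 2 KO libraries). GCB were B220+ GL7+ Fas+ cells that bound phycoerythrin (PE), taken from lymph nodes 30 days after immunization with PE in complete Freund's adjuvant, with 2 mice pooled per library (2 C and 4 KO libraries, of both sexes). BMPC were CD138+ bone marrow cells of females 30 days after the same immunization (3 C and 2 KO libraries), gated on CD138 and not on PE. A further KO BMPC library, which the submitters set aside for its reads in peaks, was not analysed here. Cell type therefore goes with sex, organ and immunization between nB and BMPC, and these cannot be told apart.

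Dnmt3a and Dnmt3b are the enzymes that place methyl groups on unmethylated CpG sites, a mark that is commonly associated with closed chromatin at regulatory elements. Plasma cells are the antibody-secreting end stage of the B lineage, in which B cell genes are closed and secretory genes are opened. RUNX factors, which bind DNA together with CBFB at the sequence TGTGGT, act in hematopoietic development and in lymphocytes both as activators and as repressors.

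The central 300 bases of 6 lost regions are given to show what the sequences held and lacked. Rims2 was shown as the region with the smallest ratio of KO to C, and the others because they held at least 1 RUNX core, which was more frequent among lost regions than among the regions set beside them. They were chosen for the core after it had been counted, from 15 regions of large difference or high level, 7 of which held a core. All are from the plus strand of mm9, and capitals mark the RUNX core TGTGGT or its reverse complement ACCACA.
Rims2, chr15:39004546-39004845: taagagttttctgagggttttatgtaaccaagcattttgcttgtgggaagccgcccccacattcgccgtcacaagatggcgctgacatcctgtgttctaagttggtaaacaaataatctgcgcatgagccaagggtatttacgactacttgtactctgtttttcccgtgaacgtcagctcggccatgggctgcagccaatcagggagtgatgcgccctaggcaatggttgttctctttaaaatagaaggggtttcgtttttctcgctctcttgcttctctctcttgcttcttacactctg
Syne1, chr10:4821457-4821756: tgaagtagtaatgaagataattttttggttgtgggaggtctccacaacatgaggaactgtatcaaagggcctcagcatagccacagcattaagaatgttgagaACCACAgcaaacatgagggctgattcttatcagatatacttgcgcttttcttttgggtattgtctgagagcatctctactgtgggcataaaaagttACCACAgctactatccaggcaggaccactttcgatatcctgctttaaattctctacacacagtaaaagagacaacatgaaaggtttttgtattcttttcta
Prss30, chr17:24117287-24117586: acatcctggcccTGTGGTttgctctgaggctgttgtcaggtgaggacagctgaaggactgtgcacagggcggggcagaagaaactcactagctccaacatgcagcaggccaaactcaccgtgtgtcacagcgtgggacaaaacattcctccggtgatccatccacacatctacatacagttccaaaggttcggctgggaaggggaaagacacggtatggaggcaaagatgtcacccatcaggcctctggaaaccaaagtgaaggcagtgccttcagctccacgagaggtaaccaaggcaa
Kdm4d, chr9:14303634-14303933: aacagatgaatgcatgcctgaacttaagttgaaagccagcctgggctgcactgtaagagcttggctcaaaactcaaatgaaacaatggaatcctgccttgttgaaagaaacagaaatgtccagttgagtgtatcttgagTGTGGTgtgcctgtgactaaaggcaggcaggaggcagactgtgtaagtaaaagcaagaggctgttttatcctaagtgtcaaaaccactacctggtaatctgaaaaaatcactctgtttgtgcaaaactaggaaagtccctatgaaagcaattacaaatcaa
Trpm2, chr10:77425599-77425898: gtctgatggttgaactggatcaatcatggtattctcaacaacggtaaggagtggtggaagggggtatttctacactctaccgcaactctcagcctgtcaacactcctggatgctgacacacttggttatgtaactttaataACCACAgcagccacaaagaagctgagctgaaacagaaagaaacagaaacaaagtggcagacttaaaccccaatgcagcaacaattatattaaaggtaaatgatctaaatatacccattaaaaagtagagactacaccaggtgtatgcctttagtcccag
no symbol, chr5:11128136-11128435: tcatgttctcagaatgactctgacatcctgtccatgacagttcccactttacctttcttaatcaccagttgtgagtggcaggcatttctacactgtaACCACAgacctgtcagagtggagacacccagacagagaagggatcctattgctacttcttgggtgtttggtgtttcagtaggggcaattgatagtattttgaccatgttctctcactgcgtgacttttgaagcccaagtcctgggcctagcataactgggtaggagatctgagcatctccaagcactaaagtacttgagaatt

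The Syne1 window, in an intron of the gene for the nuclear envelope protein nesprin-1, held 2 RUNX cores and 2 CpG sites. Single cores were found in the windows near Prss30 (intergenic, 4957 bases from the start site, 7 CpG), near Kdm4d, a histone H3K9 demethylase gene (promoter by the table's annotation, 661 bases from the start site, 0 CpG), and in an intron of Trpm2, a cation channel gene (2 CpG). The Rims2 window, intergenic and 24870 bases from the start site of a synaptic vesicle gene, held no core and 12 CpG sites. The chromosome 5 window had no gene symbol in the table, and its region shared a run of 50 bases with 12 other regions. The Rims2 region shared such a run with 129 other regions, so reads there could come from more than 1 place. The same limit holds for all 44 of the 446 lost regions with sequence that shared such a run with another region.

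**Figure D1:**
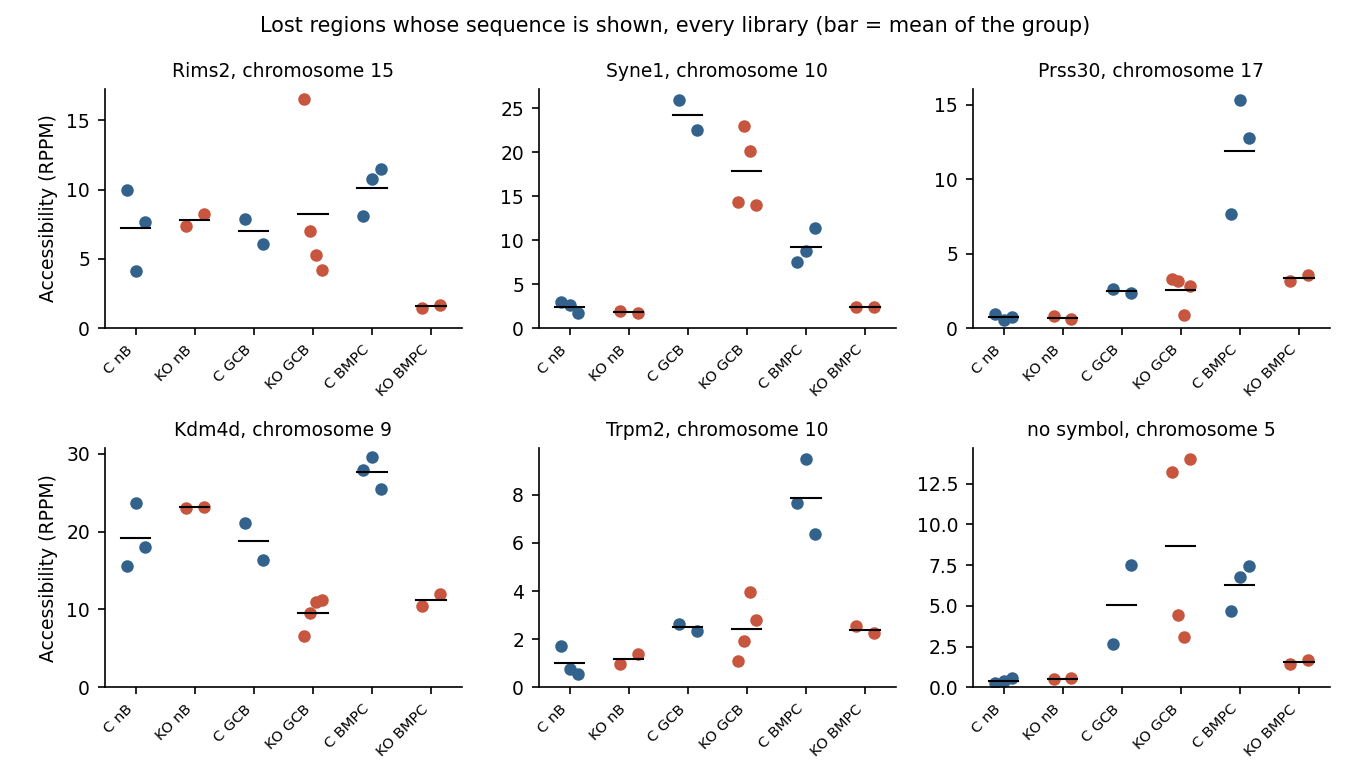
Accessibility in RPPM (y axis, from 0) of the 6 lost regions whose sequence is given, in each library (points) of the 6 groups (x axis), with the group mean as a bar. C is blue and KO is red; in BMPC all KO points lie below all C points because the rule required it, while the Syne1 region was highest in GCB and the Rims2 region was open in all C groups.

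Depth set how finely low values could be read. Libraries held 4104875 to 6079018 reads in regions for nB, 907959 to 2280954 for GCB and 5357687 to 8232313 for BMPC. A lost region had a median of 5 to 6 reads in nB libraries, 5 to 12 in GCB libraries, 38.5 to 49 in C BMPC and 14 to 25 in KO BMPC. The floor of 3 reads stood at 0.493 to 0.731 RPPM in nB, 1.32 to 3.30 RPPM in GCB and 0.364 to 0.560 RPPM in BMPC. Promoter regions of the markers followed the labels in part. That of Prdm1, the plasma cell regulator, was open in all (44.5 RPPM in C nB and 65.6 in C BMPC), Irf4 was higher in C nB (57.4) than in C BMPC (44.1), and Bcl6 was higher in C nB (53.8) than in C GCB (20.0). Rgs13, a regulator of G protein signaling in germinal centers, was at 45.7 RPPM in C GCB, 33.6 in C nB and 0.364 in C BMPC. The survival receptor gene Tnfrsf17 was at 20.0 RPPM in C BMPC and 0.392 in C nB, and Pax5, the B lineage regulator, was at 2.84 and 40.3 RPPM.

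The size of the loss is given as a description, since these values chose the regions. The fold of the C mean over the KO mean in BMPC ran from 1.58 to 6.45, with a median of 2.16; it was at least 2 in 301 regions, at least 3 in 44 and at least 4 in 8. The C mean ran from 3.00 to 70.3 RPPM (median 6.57) and the KO mean from 0.766 to 39.5 RPPM (median 2.87). KO reads therefore remained in every lost region, with at least 3 in each KO library. In bulk cells, fewer cells with a region open and less opening per cell cannot be told apart.

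Regions close to the limit differed little from those left out. Just inside were regions near Pde4d (chr13:110716684-110717126, smallest C over larger KO 1.502) and Pla2g12b (1.501), and just outside were regions near Tpx2 and Rpl31 (1.499 each). By level, a region near Cacna1e entered with a C mean of 3.00 RPPM and one near Zfp13 stayed out with 2.96 RPPM. The balance of lost against gained regions depended on scaling. It was 448 against 1849 with the deposited values, 560 against 1577 with TMM factors and 678 against 1195 after quantile normalization, with 447 and 431 of the 448 kept.

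The levels of the lost regions by library showed where they stood in the lineage. Their median was 0.942 to 1.22 RPPM in the C nB libraries and 0.823 to 0.984 in KO nB. It was 4.22 to 5.28 RPPM in C GCB and 4.38 to 5.51 in KO GCB. In BMPC it was 6.37 to 7.03 RPPM in C and 2.61 to 3.04 in KO. Other open regions had medians of 9.45 to 12.4 RPPM across all libraries. The lost regions were low in nB and intermediate in GCB. They were highest in C BMPC, which is no finding, since the rule set a level for C BMPC and none for nB or GCB.

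**Figure D2:**
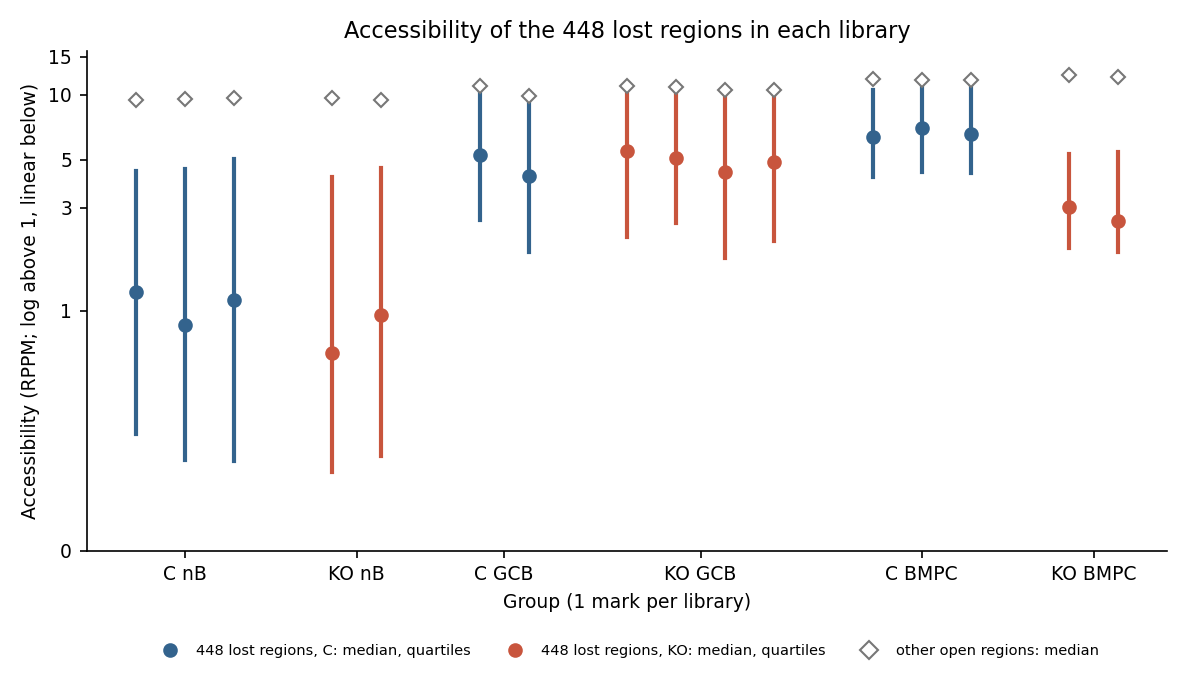
Median accessibility (points) and quartiles (lines) of the 448 lost regions in each library, with the median of the other open regions (diamonds), in RPPM on an axis that is linear below 1 and logarithmic above. The lost regions sat near 1 RPPM in nB of both genotypes and near 5 RPPM in GCB of both genotypes, and in BMPC the C libraries (6.37 to 7.03) lay above the KO libraries (2.61 to 3.04), as the rule requires.

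By the level of 3 RPPM in C cells, 169 lost regions (37.7%) were open in GCB and not in nB, 137 (30.6%) in neither, 127 (28.3%) in both and 15 (3.35%) in nB only. Among other open regions the shares were 12.1%, 10.2%, 74.5% and 3.25%, in that order. C BMPC was at least 2 times C nB in 316 lost regions (70.5%), against 28.2% of other open regions, although the rule selects for high C BMPC values. The 137 regions open in neither had medians of 0.512 RPPM in C nB, 1.61 in C GCB, 5.32 in C BMPC and 2.30 in KO BMPC. In the 127 regions open in both, medians were 11.2, 12.2 and 9.14 RPPM in C nB, GCB and BMPC and 4.14 RPPM in KO BMPC.

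The change from nB to GCB, which the rule did not use, was tested across all regions with limma (adjusted p of at most 0.01 and at least 2-fold on the scale of log2(RPPM + 1)). In C cells 186 of the 448 lost regions (41.5%) rose from nB to GCB, where 14.2% of all regions and 13.9% of other open regions did. In the same cells 20 (4.46%) fell, against 8.47% of all regions. In KO cells 212 lost regions (47.3%) rose, against 18.4% of all regions, and 31 (6.92%) fell, against 7.84%. The rises in GCB were thus found in both genotypes. The comparisons of the 2 genotypes use separate libraries, and sex and immunization also separate nB from GCB.

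Cobl, which encodes an actin nucleator, held a group of this kind, named after its values were seen. Of 7 regions between 12327481 and 12365274 on chromosome 11, 5 were lost. The promoter region (chr11:12363910-12365274) read 0.974, 0 and 0.558 RPPM in C nB, 0.823 and 0.394 in KO nB, 25.9 and 20.1 in C GCB, and 18.7, 24.2, 24.6 and 16.1 in KO GCB. It read 16.3, 16.4 and 13.5 RPPM in C BMPC and 5.83 and 5.60 in KO BMPC. GCB lay above nB without overlap in both genotypes, by 4.04 ± 0.29 (log2, SE) in C (limma, adjusted p = 1.09e-11) and 3.76 ± 0.27 in KO (adjusted p = 1.27e-11). The other 4 Cobl regions were in introns and were likewise open in GCB and not in nB.

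Trerf1, a transcriptional regulator gene, had the lost region of highest level, at its promoter (chr17:47276530-47278400). It read 64.4, 75.7 and 70.8 RPPM in C BMPC against 42.8 and 36.2 in KO BMPC, 55.4 and 58.1 in C GCB, and 41.9, 52.2, 44.3 and 49.6 in KO GCB. In nB it read 4.65 to 7.55 RPPM in both genotypes together. It rose from nB to GCB by 3.15 ± 0.17 in C (limma, log2, SE, adjusted p = 1.12e-13). KO GCB lay below C GCB in all libraries, but this difference was -0.27 ± 0.17 (adjusted p = 0.538).

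The promoter of Gatm, an enzyme of creatine synthesis, went from 2.92 to 3.16 RPPM in C nB to 44.9 and 47.8 in C GCB and 23.4 to 26.6 in C BMPC, with 15.4 and 13.3 in KO BMPC. An intron region of Osbpl3, an oxysterol-binding protein gene (chr6:50343871-50344856), read 0.244 to 1.30 RPPM in C nB, 36.1 and 40.8 in C GCB, 39.7, 45.2 and 44.7 in C BMPC, and 24.4 and 21.7 in KO BMPC. The Syne1 region shown above read 1.67 to 2.92 RPPM in C nB, 25.9 and 22.5 in C GCB, 7.54 to 11.4 in C BMPC and 2.43 in each KO BMPC library. All 3 rose from nB to GCB in both genotypes (limma adjusted p from 2.35e-14 to 2.02e-09 in C).

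Other lost regions were seen in BMPC and hardly elsewhere. Of the 5 such regions named by the rule for low nB and GCB levels, the Zfr intron region (chr15:12073412-12074041) read 9.75, 11.3 and 14.0 RPPM in C BMPC and 5.10 and 3.92 in KO. In C nB it read 0.188 to 0.744 RPPM and in C GCB 1.32 and 0. A region near Olfm1, which encodes a secreted glycoprotein, read 8.10 to 13.1 RPPM in C BMPC and 3.28 and 4.11 in KO BMPC, with 2 RUNX cores in its window. A region near Lin28a, an RNA-binding protein gene, also held 2 cores. It read 5.59, 10.8 and 7.01 RPPM in C BMPC, 3.52 and 2.61 in KO BMPC, and 0.440 and 0.468 in C GCB. Values this low in nB and GCB lay mostly at or under the floor of 3 reads.

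The opposite type, open in nB and low in BMPC, was also present. A region in an intron of Hvcn1, the voltage-gated proton channel of B cells, read 122 to 135 RPPM in C nB, 69.9 and 94.6 in C GCB, 21.7 to 22.9 in C BMPC and 12.5 and 12.3 in KO BMPC. An exon region of Stap1, a B cell adaptor gene, read 52.9 to 61.2 RPPM in C nB, 5.61 to 8.45 in C BMPC, and 3.04 and 2.61 in KO BMPC. C BMPC was at most 0.5 times C nB in 44 lost regions (9.82%), against 8.75% of other open regions.

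To ask whether the lost regions differed by genotype before the plasma cell stage, KO was compared with C in nB and in GCB. In nB, 0 lost regions were higher (0% of all regions) and 0 were lower (0%) by limma. At an unadjusted p under 0.05, 1 was higher (0.223%; 0.630% of all regions) and 7 were lower (1.56%; 1.04%). The edgeR quasi-likelihood and likelihood ratio tests each called 1 lower, the region near Cep89, and DESeq2 called 0. In GCB, 0 were higher, where 0.0317% of all regions were, and 0 were lower (0%). At an unadjusted p under 0.05, 25 were higher (5.58%; 7.45% of all regions) and 33 lower (7.37%; 4.34%), and neither edgeR test nor DESeq2 called any.

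With a median of 5 to 12 reads per lost region, small differences in nB and GCB were not detectable at this depth. In nB the C mean was under 1 RPPM in 222 lost regions (49.6%), where even a complete loss stays under 2-fold on the log2(RPPM + 1) scale, so these could not be called lower. In GCB this held for 25. The median difference KO minus C over the lost regions was -0.05 in nB (log2; -0.01 over all regions) and -0.06 in GCB (0.03 over all regions). Both medians were within the spread of the library medians, whose SD was 0.0939 in nB and 0.137 in GCB. In GCB, KO was lower in 54.5% of lost regions and in 46.1% of all regions.

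All KO libraries lay below all C libraries in 54 lost regions in nB (12.1%; 11% of all regions) and in 49 in GCB (10.9%; 5.52% of all regions). All KO lay above all C in 35 in nB (7.81%; 9.38%) and in 18 in GCB (4.02%; 7.47%). For gained regions the GCB shares were 2.43% below and 14.4% above, with a median difference of 0.20. The genotype effect in GCB minus that in nB was called in 0 regions of the whole table by limma, with 19 lost regions higher (4.24%; 4.15% of all regions) and 11 lower (2.46%; 2.06%) at an unadjusted p under 0.05.

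**Figure D3:**
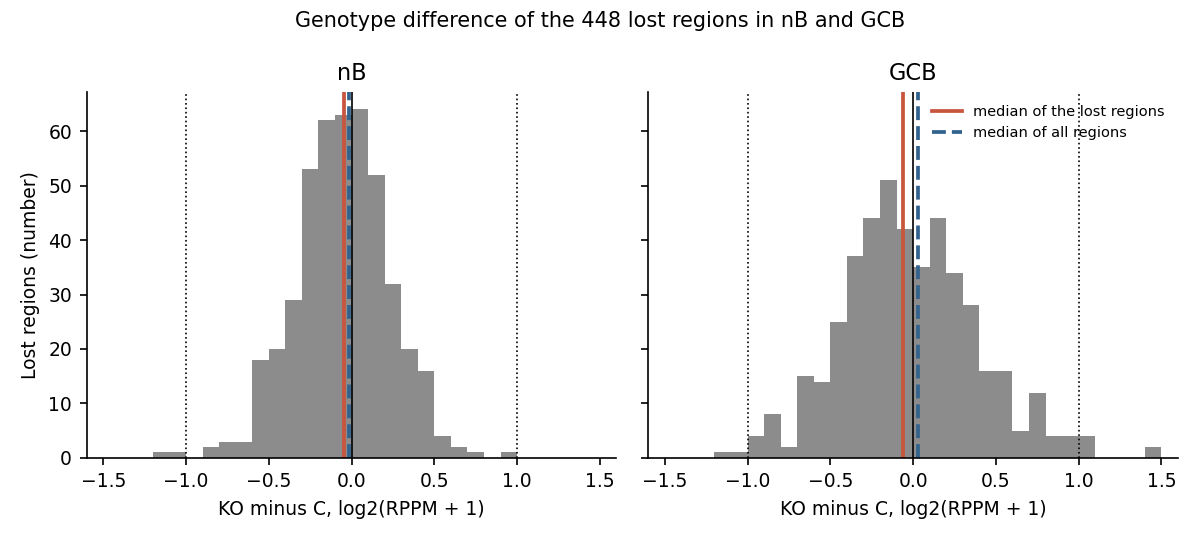
Number of lost regions (y axis) by KO minus C on the log2(RPPM + 1) scale (x axis) in nB (left) and GCB (right), with the median of the lost regions (red), the median of all regions (blue, dashed), zero (black) and the 2-fold limits (dotted). The medians of the lost regions were -0.05 in nB and -0.06 in GCB, and the distributions lie around zero in both cell types.

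Of the named regions, those at Kdm4d and Il21r are given in full for their low p-values, chosen after these were seen. The Kdm4d region read 21.1 and 16.4 RPPM in C GCB and 6.61, 9.55, 11 and 11.2 in KO GCB, without overlap, a difference of -0.92 ± 0.20 (log2, SE; limma adjusted p = 0.0498), which is past 0.05 but under 2-fold. Its adjusted p ran from 0.0318 to 0.688 over the alternative settings. In nB the same region read 15.6 to 23.7 RPPM with the genotypes overlapping, and in BMPC 28.0, 29.6 and 25.5 in C against 10.4 and 11.9 in KO.

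The region near the promoter of Il21r, the receptor for a cytokine of follicular helper T cells (chr7:132745078-132745426), read 7.55, 5.84 and 7.63 RPPM in C nB and 2.80 and 2.76 in KO nB. The difference was -1.08 ± 0.26 (log2, SE; limma adjusted p = 1), and over the alternatives the adjusted p ran from 0.0627 to 1. In GCB it read 15 and 23 in C and 12.7 to 14.7 in KO, and in BMPC 4.03, 2.74 and 3.58 in C against 1.09 and 1.12 in KO. In BMPC the rule required KO to lie below C. In GCB the lowest C library (15) and the highest KO library (14.7) differed by less than 1 read (0.440 RPPM in that C library). The difference between genotypes passed the adjusted test in neither nB nor GCB.

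At Cep89, picked for the edgeR calls above, 1 library decided the limma call. The exon region chr7:36200914-36201644 read 0.244, 9.98 and 15.4 RPPM in C nB and 0.165 and 0.787 in KO nB, so that 1 C library stood with the KO libraries. By limma the difference was -2.08 ± 0.62 (log2, SE; adjusted p = 1). It was -3.22 (adjusted p = 0.0023) without that library, C nB replicate 1, and -4.23 (adjusted p = 0.00124) by the edgeR quasi-likelihood test on the recovered reads. A region near Cd47, an inhibitor of phagocytosis, moved the other way in GCB. It read 8.80 and 4.22 RPPM in C GCB and 11.5 to 13.2 in KO GCB. The difference was 0.87 ± 0.22 by limma (log2, SE, adjusted p = 0.0907). By the edgeR quasi-likelihood test it was 0.82 (adjusted p = 0.649). In BMPC the region read 16.8 to 20.8 RPPM in C and 9.60 and 10.5 in KO.

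A sequence that the rule had not used was more frequent in the lost regions, though most of them lacked it. The RUNX core TGTGGT, on either strand, lay in the central 300 bases of 191 of the 446 lost regions with sequence (42.8%). The 95% Wilson interval was 38.3 to 47.5 and takes the regions as independent. The core lay in 20.0% of gained regions, 22.8% of other open regions and 24.5% of all regions with windows of the same length. Among all 2080 six-letter sequences taken with their reverse complements, it had the largest difference between lost and other open regions, 20.0 points. The next were AAACCA (40.1% against 23.1%) and AACCAC (35.2% against 18.6%), which overlap the longer form TGTGGTT and its reverse complement AACCACA. That form lay in 21.5% of lost, 5.80% of gained and 8.93% of other open windows. At least 2 cores lay in 57 lost windows (12.8%), against 3.68% of other open windows.

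The difference was also present outside promoters and within bands of GC content, as a description with no test. Outside promoters the core lay in 44.8% of 388 lost, 20.3% of gained and 27.6% of other open windows. Within promoters it lay in 29.3% of 58 lost and 12.6% of other open windows. In windows outside promoters with GC under 45%, from 45 to 50% and above 50%, the lost shares were 44.7%, 48.4% and 41.2%, against 28.5%, 29.8% and 25.5% of other open windows. Without the chromosome 5 members near Speer1, whose sequences resemble each other, the share was 42.5%.

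The cores sat near the middle of the lost regions. In the 50-base bin just before the center, 12.1% of lost regions held a core, against 3.42% of gained and 5.10% of other open regions. In the outermost bins, 275 bases from the center, the lost shares were 3.69% and 4.10%, near those of other open regions (3.73% and 3.43%).

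**Figure D4:**
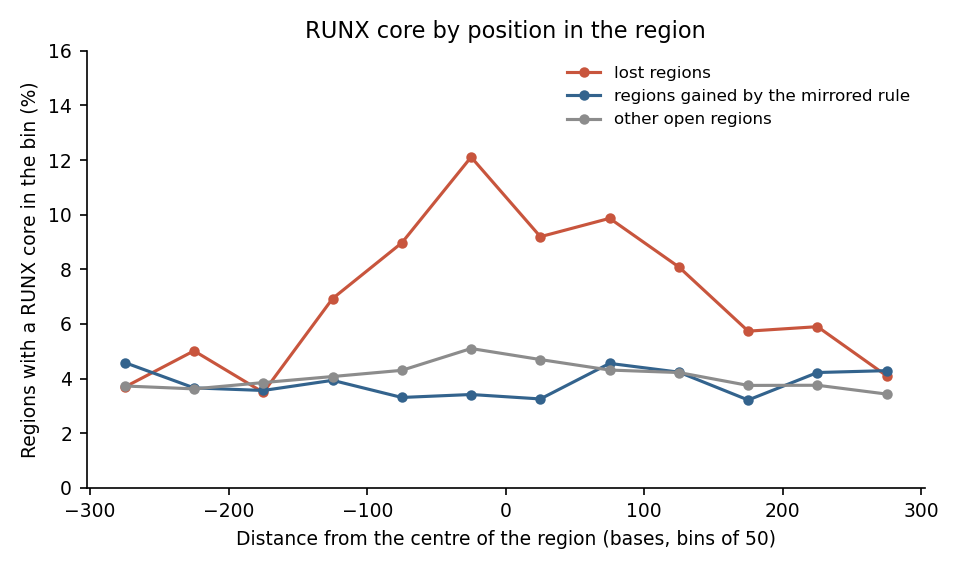
Share of regions (%) with a RUNX core in each 50-base bin (y axis, from 0) by distance from the center of the region in bases (x axis), for lost, gained and other open regions. The lost regions rose to 12.1% just before the center, while gained regions stayed at 3.21% to 4.59% in all bins.

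Regions open in neither nB nor GCB held the core most often, in 56.2% of 137 lost windows against 30.3% of other open windows of the same class. The shares were 33.1% against 25.2% for regions open in GCB only, 40.5% against 21.1% for regions open in both, and 7 of 14 against 29.6% for the few open in nB only. Lost regions with a core had a lower median in C GCB (3.59 RPPM) than those without (5.68), and nearly the same medians in C BMPC (6.54 and 6.88) and KO BMPC (2.89 each). Their median KO minus C was -0.04 in nB and -0.05 in GCB, against -0.08 and -0.07 without a core.

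Open regions were also ordered by KO minus C within each cell type and divided into deciles, which in BMPC uses the same values as the rule. In BMPC the core lay in 36.9% of the lowest decile, 26.0% of the second and 18.9% to 22.9% of the others. In nB the lowest decile had 24.2% and the highest 27.7%, and in GCB both had 26.8% to 26.9%. The lowest decile in BMPC contains lost regions, so its share is not separate from theirs. Over all regions outside promoters, those with a core took 26.6% to 27.3% of the reads in C BMPC, 25.9% in both KO BMPC libraries, 25.9% to 26.2% in GCB and 27.6% to 28.2% in nB. These shares include the lost regions, which were chosen on BMPC values. With the lost regions left out, the shares were 26.4% to 27.2% in C BMPC and 25.8% in both KO BMPC libraries.

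**Figure D5:**
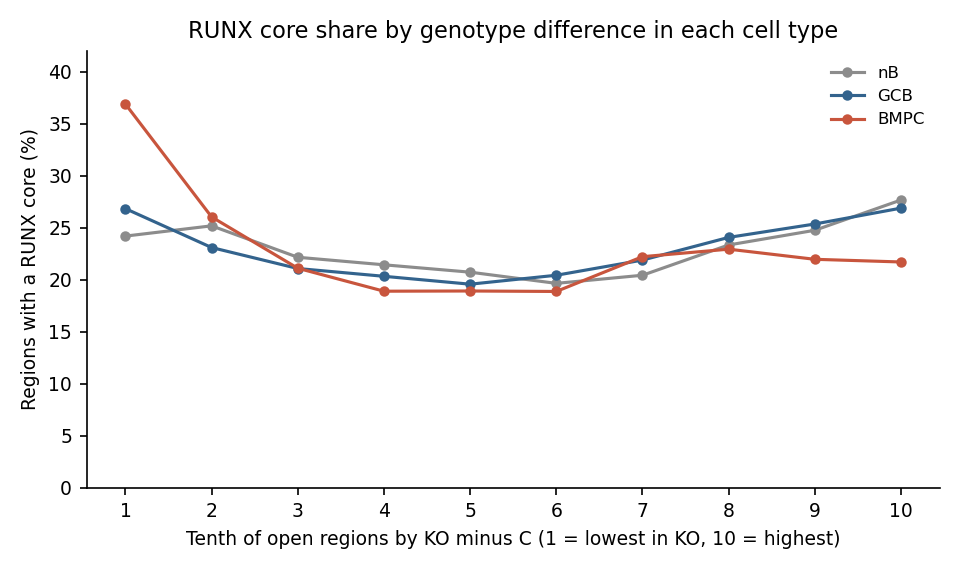
Share of open regions (%) with a RUNX core (y axis, from 0) in deciles of KO minus C (x axis, 1 lowest in KO, 10 highest) for nB, GCB and BMPC. In BMPC the lowest decile stood at 36.9%, while all deciles of nB and GCB lay between 19.6% and 27.7%.

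The share depended on which libraries set the rule. It was 36.7% without C BMPC replicate 2 and 38.0% without KO BMPC replicate 1, settings that took 640 and 1487 regions, and 47.6% of the 82 regions at a ratio of 2. Of the open regions assigned to Runx1, Runx2 and Runx3, 0 of 11, 2 of 11 and 0 of 19 were lost, beside 1.12% of all open regions, counts too small to compare with that share. The region nearest the Runx3 start read 13.5, 25.7 and 17.0 RPPM in C BMPC and 11.5 and 13.8 in KO BMPC, with overlap. Cbfb, the shared partner, read 82.5 and 82.7 RPPM on average.

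In percentage points, the other listed motifs differed less between lost and other open windows. The composite AP-1-IRF motif was searched as separate patterns, and its shares below are for the pattern found more often in lost windows. The other AP-1-IRF pattern went the opposite way, with 0 lost windows (0%) against 0.166% of other open windows. GGAAGT, an ETS core, lay in 23.1% of lost, 27.1% of other open and 34.9% of gained windows, and the composite ETS-IRF motif in 4 lost windows (0.897%), 2.58% and 6.62%. The composite AP-1-IRF motif lay in 7 lost windows (1.57%) and 0.184% of other open windows, and the AP-1 core TGACTCA in 9.42% and 6.0%. FOX TGTTTAC lay in 6.73% and 3.59%, and octamer ATGCAAAT in 5.83% and 3.69%. The E-box CAGCTG lay in 27.4%, 21.3% and 29.2% of lost, other open and gained windows, and CACCTG in 32.3%, 28.2% and 38.6%. GGGCGG, bound by KLF and SP factors, lay in 12.1% of lost and 28.0% of other open windows. Outside promoters these shares were 8.76% and 12.8%. A match is a sequence description, and binding was not measured.

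CpG sites were few in the lost regions. The median window held 4 CpG in lost, 5 in gained and 6 in other open regions, and outside promoters 3, 5 and 4. At least 15 CpG lay in 6.73% of lost and 27.6% of other open windows, and 31 lost windows (6.95%) held none, against 3.01% of other open windows. Median GC was 47.2% in lost, 49.7% in gained and 51.3% in other open windows. By annotation, 58 lost regions (12.9%) were promoters, 46 exonic, 182 intronic and 162 intergenic, while 31.9% of other open and 6.71% of gained regions were promoters. Lost regions had a median width of 570 bases and lay a median of 14468 bases from the nearest start site, against 679 and 6551 for other open regions.

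Some lost regions lay together. Within 100 kb of another lost region stood 123 of the 448 (27.5%), against 57.4% of the more numerous gained regions, and 15 runs held 3 or more. The longest, on chromosome 5 from 10948148 to 11417863 near Gm6455 and Speer1, held 8 lost of 13 regions, and a further 3 of 3 lay near Gm6460 up to 11771461. All 11 shared a run of 50 bases with another of them, so their reads cannot be assigned with certainty and they do not count as separate observations. In the Speer1 region (chr5:11416904-11417863) C BMPC read 4.55, 10.2 and 6.85 RPPM and KO BMPC 2.07 and 1.87, with 0.558 to 0.974 in C nB.

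Other runs were shorter, and those given were picked after their values were seen. At Creg2, which encodes a secreted glycoprotein, all 4 regions of the span were lost, and at Sgpp2, a sphingosine-1-phosphate phosphatase gene, all 3 were. The Sgpp2 region 439 bases from the start site (chr1:78307361-78307957) read 9.62, 9.85 and 6.85 RPPM in C BMPC and 2.55 and 2.61 in KO BMPC. At Tbx21 and Tbkbp1, 4 of 14 regions were lost, and at Mdm1 3 of 7. The medians of the Mdm1 members were 34.3 RPPM in C nB, 20.8 in C GCB, 12.3 in KO GCB, 6.15 in C BMPC and 2.40 in KO BMPC.

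Over the lists of pathway genes, 14 of 1663 open regions were lost, a share near the 1.12% of all open regions, and no list was tested. Plasma cell identity genes had 1 of 170 (Zbtb32), survival and cytokine receptors 2 of 121 (Il21r and Il6st), homing and adhesion 1 of 186 (Cd47) and the endoplasmic reticulum response 1 of 102 (Lman1, a cargo receptor gene). B cell identity genes had 3 of 277 (Bach2, Btla and Irf8), transcription factors 6 of 383 (Arid5a, Egr3, Klf13 and Runx2), signaling genes 0 of 290 and chromatin regulators 0 of 145.

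The Zbtb32 promoter region, of a zinc finger repressor gene in the B lineage, read 14.0, 16.6 and 13.9 RPPM in C BMPC and 8.87 and 8.40 in KO BMPC, with 24.8 and 37.4 in C GCB. The Irf8 region, 3971 bases from the start of a B cell and myeloid regulator gene, read 5.2, 6.39 and 7.01 RPPM in C BMPC and 1.94 and 2.24 in KO BMPC. In GCB it read 20.2 and 13.6 in C and 7.64 to 18 in KO, and it rose from nB to GCB in C by 3.12 ± 0.33 (log2, SE; limma adjusted p = 1.65e-08). The Bach2 region, 58454 bases from the start of a repressor gene of plasma cell fate, read 8.72 to 10.0 RPPM in C BMPC and 5.47 and 5.60 in KO BMPC. Of the 2 regions assigned to Runx2, the stronger lay in an intron of Supt3, 78693 bases from the Runx2 start, and read 5.98, 7.66 and 7.01 RPPM in C BMPC and 3.52 and 3.55 in KO BMPC. The other lay in an intron of Runx2 and read 2.80 to 3.65 RPPM in C BMPC and 1.82 and 0.747 in KO BMPC.

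The following 3 regions near genes known from T and natural killer cells were picked by hand after their values were seen, and no list or share stands behind them. A region near Prf1, the perforin gene (chr10:60770955-60771924), read 29.1, 43.1 and 29.7 RPPM in C BMPC, 14.3 and 16.8 in KO BMPC, 1.87 to 4.40 in GCB and 0 to 0.558 in nB. A region in an intron of Tbx21, the T-bet gene, read 8.84, 11.1 and 8.25 RPPM in C BMPC and 4.13 and 2.43 in KO BMPC. An exon region of Cd4 read 8.58, 9.85 and 7.16 RPPM in C BMPC and 3.04 and 4.67 in KO BMPC, with 0.186 to 0.487 in C nB.

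Marker promoters of other cell types are given beside them, as summed RPPM. The study's cytometry panels removed cells stained for CD11b, CD11c, CD90.2 or Ly6-G. T cell markers had a region within 2 kb of the start for 2 of 10 genes (Lck and Tcf7), which summed to 33.9 to 36.7 in C BMPC and 31.0 to 31.7 in KO BMPC, while Cd3e, Cd3d, Cd3g, Cd4, Cd8a, Cd8b1, Thy1 and Bcl11b had none. Natural killer markers (3 of 4 genes) summed to 9.31 to 12.5 in C and 9.71 to 16.8 in KO, most of it from Eomes (means 6.61 in C and 10.5 in KO), while Klrb1c (2.97 and 2.24) and Klrk1 (1.10 and 0.518) had lower means in KO. Dendritic cell markers (4 of 5) were at 105 to 110 in C and 83.1 to 86.8 in KO, without overlap. Most of that difference came from Flt3 (means 47.6 in C and 30.2 in KO), while Siglech was higher in KO (1.02 and 1.91). The part of these cell types in the result was not tested.

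The sums of the remaining lists were higher in KO BMPC or overlapped. B cell markers summed to 84.1 to 89.0 in C and 96.7 to 99.2 in KO, granulocyte markers (2 of 11 genes) to 20.3 to 20.8 and 21.7 to 23.9, and monocyte markers (5 of 9) to 33.8 to 38.6 and 39.7 to 40.3. Among B cell markers Bank1 differed most (means 22.3 in C and 33.1 in KO). Fcer2a, Cr2, Ebf1 and Cd22 had lower means in KO. Of the monocyte markers, Cd14 and Itgam had lower means in KO. Mast cell markers (2 of 6) stood at 5.92 to 14.4 and 15.4 to 15.9. Of these, Kit was higher in KO (means 5.93 and 12.7) and Gata2 lower (3.35 and 2.92). Plasma cell (367 to 413 and 380 to 400), germinal center (145 to 161 and 156 to 158), erythroid (68.2 to 79.1 and 73.2 to 73.9), megakaryocyte (18.4 to 23.5 and 21.1 to 23.0) and stromal markers (33.0 to 45.8 and 38.4 to 42) overlapped. No marker promoter region was itself a lost region.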

How the data were processed

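The deposited table held 66177 accessible regions, called by the authors in single libraries with MACS2 and merged, with 1 value per library in 16 libraries. Values deposited by the authors were RPM counted over accessible regions only, that is reads per 1000000 reads in those regions (RPPM). The submitters' processing notes list Bowtie 1.1.1, Picard 1.127, MACS2 2.1.0.20140616, edgeR 3.12.1 and the build mm9. Values were whole multiples of 1 read for 100% of entries (within 0.01 read), so reads were recovered, and the edgeR quasi-likelihood test on them called 3 regions higher and 4 lower in KO nB and 1 higher in KO GCB. Columns with the authors' 9 comparisons (fold changes and p-values) were not used. The 2 Dnmt3-deficient plasma cell libraries of the table were analysed, and the library set aside by the submitters was not analysed here.

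Regions were taken by the rule given in the report. For tests, limma 3.58.1 (R 4.3.3) was fitted to log2(RPPM + 1) of all 16 libraries in 6 groups, with Benjamini-Hochberg adjustment over all 66177 regions, and with calls made where the adjusted p was 0.01 or less and the change at least 2-fold. No test of KO against C in plasma cells is reported, since those values chose the regions. edgeR 4.0.16, DESeq2 1.42.0, TMM, quantile normalization, pseudocounts of 0.1 and 5 RPPM, other limits and leaving out each library were alternatives. The fit was also run on simulated data with 200 regions changed 4-fold. The share of these regions recovered is not given here. The simulation is therefore no measure of what could be detected at the low levels of the lost regions in nB. The log2(RPPM + 1) scale understates changes of low regions. Reads carry no molecular identifiers, so the floors cover counting error only. The Wilson interval takes regions as independent, although some lost regions lay in runs or shared sequence. P-values measure the spread between these libraries.

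Sequences were read from the mouse genome build NCBIM37 (mm9); all 65893 regions on its chromosomes fit inside them. Motifs were searched on both strands in the central 300 bases and in whole regions, and shares are of the central windows unless whole regions are named. The members, gene lists, markers and motifs were chosen with earlier results of these data known. Regions named were the 10 with the smallest ratio of KO to C at a C mean of at least 6 RPPM, the 6 highest in C plasma cells, the 5 highest promoters, those of the gene lists, those called by genotype in nB or GCB (0), and the 5 highest in nB and 5 lowest in nB and GCB. These came to 42, and any other region given was picked after its values were seen. A gene is the nearest one the table gives. The locus of the Cre allele and 1 marker gene are not reported here. Analyses used Python 3.11.15, pandas 2.3.3, numpy 2.4.6, scipy 1.17.1 and matplotlib 3.10.9.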

Additional observations from a re-analysis of the deposited data

Results flagged for a closer look

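In the 4 KO GCB libraries, a single library stood apart from the others in 3 of 43 sets of values (42 named regions and the median of the lost regions) by Dixon's test at the 95% level, where chance flags about 1 in 20. The Speer1 region (chr5:11416904-11417863) read 5.73 RPPM in replicate 2, with the others at 7.69 to 7.89. The Stap1 region (chr5:86515543-86516379) read 32.0 RPPM in replicate 3, with the others at 18.5 to 19.6. The Zfr region (chr15:12073412-12074041) read 2.20 RPPM in replicate 1, the library of lowest depth, with the others at 0.438 to 0.699, and 2.20 RPPM there is under its floor of 3 reads (3.30 RPPM). No named region moved one way in every library of nB and the opposite way in every library of GCB.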

How the results depend on the processing

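The number of lost regions was 678 after quantile normalization, 1275 at the looser ratio tried, 82 at a ratio of 2 and 249 at a C mean of at least 6 RPPM, and ran from 640 to 1487 when 1 plasma cell library was left out, highest without KO BMPC replicate 1. For KO against C in nB, 1 region was called lower by either edgeR test and 0 to 1 when a library was left out. For KO against C in GCB, 1 was called lower at an adjusted p of at most 0.05 with no limit on size. Pools named F2 and M1 exist for each genotype, but nothing ties such pools to the same mice, and their deviations correlated with r = 0.0519 over 48006 regions; with these names as a replicate block in GCB, 1 lost region was called higher and 2 lower, where 107 and 28 of all regions were, and the cause was not tested.

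For the change from nB to GCB, a pseudocount of 5 RPPM left 92 regions higher in C (6.53% of all regions) and 84 higher (7.02%) and 16 lower (3.58%) in KO, since it shrinks low values. At an adjusted p of at most 0.05 with no limit on size, 41 (9.15%) were lower in C and 50 (11.2%) in KO, where 20.7% and 21.5% of all regions were. Leaving out 1 library gave 145 to 202 higher and 13 to 21 lower in C, with 13 without C GCB replicate 2, and 160 to 223 higher and 25 to 32 lower in KO; of all regions, 10.2% to 15.5%, 5.84% to 9.24%, 12.3% to 18.8% and 5.06% to 8.41% were called in that order. The median difference KO minus C ran from -0.07 to -0.01 in nB and from -0.13 to -0.00 in GCB. The share with a RUNX core, an alternative chosen after seeing the data, was 47.6% at a ratio of 2 and ran from 36.7% to 44.2% when 1 library was left out, with 36.7% without C BMPC replicate 2 and 38.0% without KO BMPC replicate 1. Named regions were followed under the alternatives only where the main limma fit gave an unadjusted p under 0.05 (KO against C) or a call (nB to GCB). Of these 1140 values, 1069 kept direction and side of the threshold, 70 lost their call, 1 gained one and 0 reversed. Since the comparisons were picked for a clear difference, few reversals could occur, and the counts do not measure stability in general.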
